A study of Mus musculus with 66 samples.

Results

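The genes described here are 8 that make reactive oxygen or nitrogen species in the gut wall: the dual oxidases Duox1 and Duox2, their maturation factors Duoxa1 and Duoxa2, the colonic NADPH oxidase Nox1 and its organizer Noxo1, the inducible nitric oxide synthase Nos2, and the phagocyte oxidase core Cybb. They were taken by symbol from the deposited transcript table, and all 8 were found among the 30452 genes it lists. The data are bulk mRNA abundances of 66 mucosal sections from 19 wild-type C57Bl/6 mice, bought at 6 weeks of age. Dextran sulfate sodium (DSS, a polymer that damages the colonic lining) was given at 3% for 6 days from day 0. Uninjured mice were taken at day 0 (4 mice), and injured mice at days 3, 6, 9, 14 and 20 (3 mice each), so those of day 3 were still on DSS. Each mouse gave a section of mid-colon, of rectum and of anus, so each of these has 19 samples. Squamous neo-epithelium, a section named only at days 9, 14 and 20, came from 3 mice on each of those days. The mice carry numbers from 1 to 19 in the labels, which name no transgene or batch, and muscle was stripped from the sections ahead of RNA extraction.

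Dual oxidases and NADPH oxidases are membrane enzymes that pass electrons from NADPH to oxygen. The dual oxidases release hydrogen peroxide at the apical surface and reach that surface only with their maturation factors. NOX1 is the superoxide-making oxidase of colonic epithelium and works with the organizer NOXO1 and the activator NOXA1. CYBB, also called gp91phox or NOX2, is the catalytic subunit of the phagocyte oxidase. NOS2 makes nitric oxide from arginine and is induced by inflammatory cytokines in epithelial cells and macrophages.

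Per GENCODE M21 on GRCm38, the dual oxidase genes lie in 1 cluster on chromosome 2. Duox2 spans 122279247 to 122298449 on the minus strand, Duoxa2 122298900 to 122302885 on the plus strand, Duoxa1 122302191 to 122313730 on the minus strand and Duox1 122315672 to 122347972 on the plus strand. Duoxa1 and Duoxa2 overlap on opposite strands. Nox1 lies on chromosome X from 134086421 to 134221956 (minus), Cybb on chromosome X from 9435252 to 9487771 (minus), Noxo1 on chromosome 17 from 24696234 to 24700529 (plus) and Nos2 on chromosome 11 from 78920787 to 78960254 (plus). Noxo1 overlaps Tbl3, a gene of the opposite strand.

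Sequence before the start site is shown for 4 of the genes, 1 for each pattern described below: Duoxa2 (high in injured colon), Duox1 (high in squamous sections), Nox1 (low during DSS and high after it) and Cybb (highest in rectum at day 9 and in neo-epithelium). RefSeq, on GRCm38.p6, holds an entry for 7 of the 8 genes, all except Nos2. Each line gives the 250 bases before the start site, 5′ to 3′ on the gene's own strand, with motif matches in capitals. They are chr2:122298650-122298899 (plus) for Duoxa2, chr2:122315422-122315671 (plus) for Duox1, chrX:134111855-134112104 (minus) for Nox1 and chrX:9469325-9469574 (minus) for Cybb. The windows of Nox1 and Cybb lie inside the GENCODE spans given above, so the RefSeq and GENCODE annotations differ on where these genes begin.
Duoxa2: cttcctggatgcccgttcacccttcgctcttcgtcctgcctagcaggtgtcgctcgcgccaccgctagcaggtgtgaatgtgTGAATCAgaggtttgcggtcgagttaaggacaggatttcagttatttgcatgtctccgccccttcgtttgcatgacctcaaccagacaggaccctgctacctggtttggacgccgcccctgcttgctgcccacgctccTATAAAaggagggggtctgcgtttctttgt
Duox1: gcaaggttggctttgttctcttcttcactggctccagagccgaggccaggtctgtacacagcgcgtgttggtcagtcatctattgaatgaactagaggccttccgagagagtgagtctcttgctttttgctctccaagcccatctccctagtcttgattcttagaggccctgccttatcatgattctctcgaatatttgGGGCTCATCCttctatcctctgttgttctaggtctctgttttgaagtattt
Nox1: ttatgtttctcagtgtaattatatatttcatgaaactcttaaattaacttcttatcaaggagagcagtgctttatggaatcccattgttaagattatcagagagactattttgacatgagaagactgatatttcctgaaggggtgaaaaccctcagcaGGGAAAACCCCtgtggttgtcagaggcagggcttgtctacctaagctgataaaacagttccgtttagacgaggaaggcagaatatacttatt
Cybb: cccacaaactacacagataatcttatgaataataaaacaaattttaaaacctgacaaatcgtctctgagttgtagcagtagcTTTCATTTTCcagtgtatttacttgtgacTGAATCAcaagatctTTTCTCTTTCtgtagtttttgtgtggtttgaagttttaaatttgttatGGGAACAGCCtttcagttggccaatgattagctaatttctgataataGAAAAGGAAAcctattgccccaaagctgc
The motifs searched on both strands were the TATA box (TATAAA), AP-1 (TGANTCA), NF-kappaB (GGG and CC with any 5 bases between), STAT (TTCNNNGAA) and IRF (GAAA repeated with any 2 bases between). Among 32536 windows of the same length in the table, 12.3% held the TATA box, 6.73% AP-1, 46% NF-kappaB, 7.04% STAT and 2.98% IRF. The Duoxa2 window held TATAAA 30 bases before the start site. At 168 bases before that site it held TGAATCA, a match to the AP-1 pattern as searched, which allows any middle base. The Cybb window held 3 IRF matches, 1 match to the same AP-1 pattern (also TGAATCA) and 1 NF-kappaB match. Nox1 held 2 overlapping NF-kappaB matches, Duox1 and Noxo1 1 each, and the windows of Duox2 and Duoxa1 held no match to any of the 5. The RefSeq start sites of Duox2 and Duoxa2 point away from each other and lie 673 bases apart, those of Duox1 and Duoxa1 1942. That of Duox2 (122298227) lies inside its GENCODE span, so the annotations differ on this gene too. A match of letters is a description of the window only.

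The section labels were checked against marker genes, as summed TPM (a relative abundance adjusted for transcript length, with a fixed total per sample). In the uninjured mice 10 squamous keratinocyte markers summed to between 19621 and 41096 TPM in anus, between 22.0 and 223 in rectum and between 5.62 and 14.1 in mid-colon. Neo-epithelium held between 15157 and 33553 TPM of them. The 10 colonocyte markers summed to between 15315 and 18278 TPM in uninjured rectum and between 1066 and 3626 in uninjured anus. Read depth is unknown, and between 11268 and 13789 genes per sample had at least 1 TPM. In bulk tissue, fewer cells of a type and less RNA per cell cannot be told apart.

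**Figure D1:**
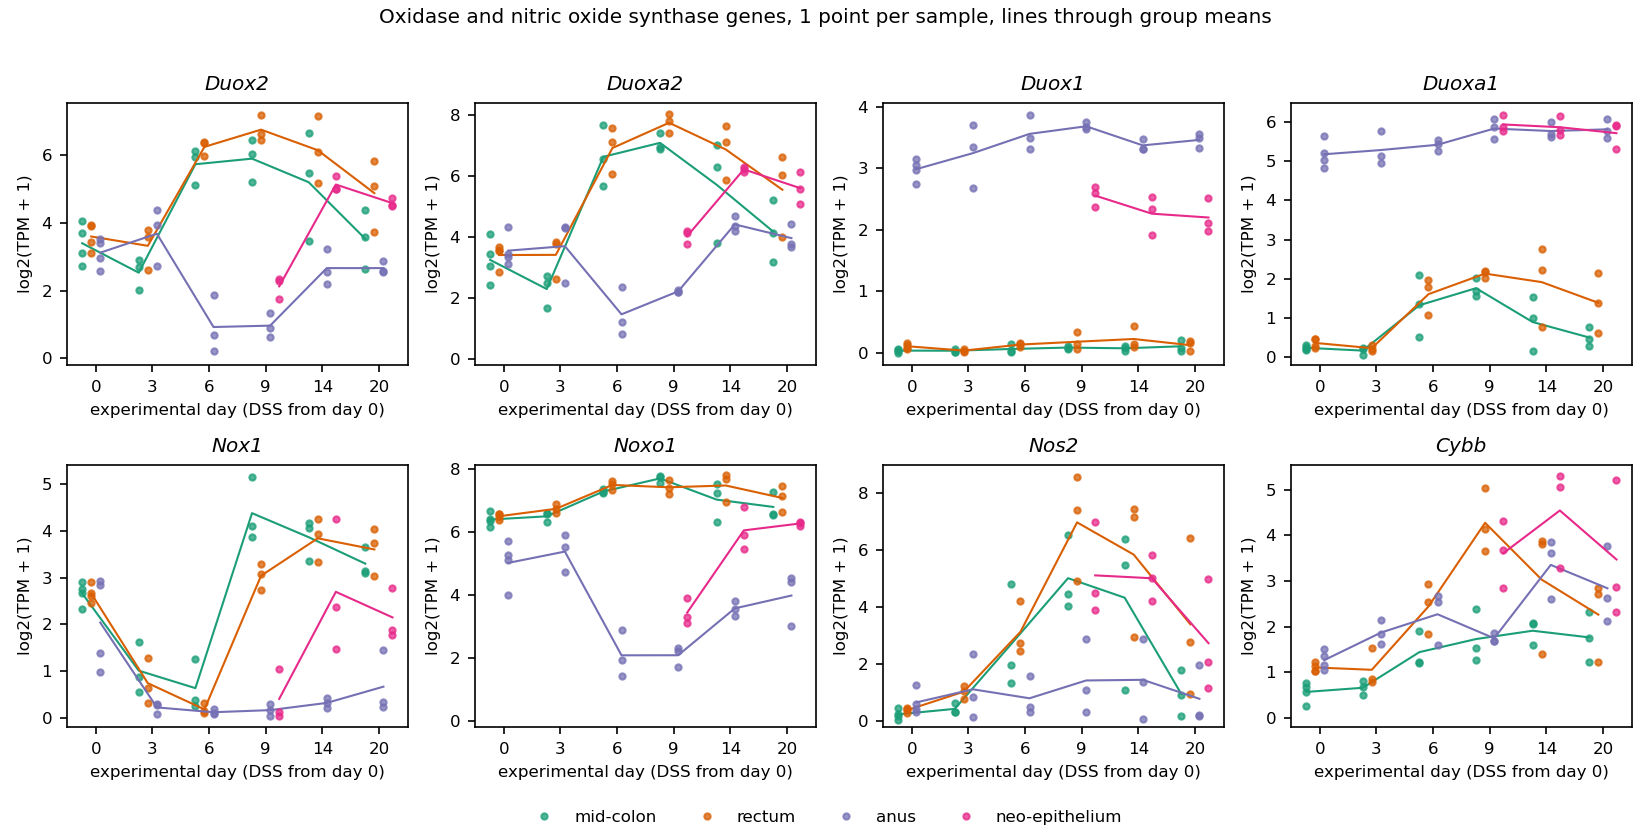
Each panel is 1 gene, with log2(TPM + 1) on the vertical axis and experimental day on the horizontal axis (days equally spaced), 1 point per sample coloured by section and lines through the group means. Duox2 and Duoxa2 are high in mid-colon and rectum at days 6 and 9, Duox1 and Duoxa1 in anus and neo-epithelium on every day, and Nox1 is low at days 3 and 6.

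Duox2, the dual oxidase of colonic epithelium, was at a low level in every uninjured section and rose in mid-colon and rectum at days 6 and 9. In rectum it stood at 7.71, 14.1, 9.82 and 14.2 TPM in the 4 uninjured mice. It stood at 12.8, 11.0 and 5.04 TPM at day 3, 83.7, 62.1 and 81.2 at day 6, and 86.7, 97.2 and 146 at day 9. The last pair of groups lay wholly above the uninjured range, while day 3 overlapped it. At day 14 the 3 rectal samples read 35.2, 143 and 67.6 TPM and at day 20 they read 33.0, 55.6 and 12.2. Set against day 0, the difference in log2(TPM + 1) was 2.65 ± 0.21 (SE) at day 6, 3.16 ± 0.25 at day 9 and 2.55 ± 0.43 at day 14 (limma with Benjamini-Hochberg adjusted p of 0.000126, 1.8e-05 and 0.0136). At day 20 it was 1.28 ± 0.45, which did not pass (limma, adjusted p = 0.107). In mid-colon Duox2 read 5.64, 15.7, 11.9 and 7.65 TPM at day 0, 60.6, 33.9 and 69.3 at day 6, 35.7, 86.9 and 64.9 at day 9, and 10.1, 100.3 and 43.4 at day 14. It rose at day 6 by 2.34 ± 0.34 and at day 9 by 2.50 ± 0.36 on the log2 scale (limma, adjusted p 0.00338 and 0.000388). At day 14 1 of the 3 mid-colonic samples lay within the uninjured range and the others above it, and the difference of 1.80 ± 0.65 did not pass (limma, adjusted p = 0.154). Without mouse 16 the rectal call at day 14 was also lost (adjusted p = 0.0537).

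Duoxa2, the maturation factor that carries DUOX2 to the cell surface, moved over a wider range. In rectum it read 6.13, 11.0, 10.6 and 11.6 TPM uninjured, 13.3, 12.6 and 5.17 at day 3, 137, 65.7 and 189 at day 6, and 168, 261 and 220 at day 9. Its mean at day 9 was 22.0 times the uninjured mean, against 9.61 times for Duox2. The rectal difference was 3.51 ± 0.34 at day 6, 4.34 ± 0.23 at day 9 and 3.46 ± 0.41 at day 14 on the log2 scale (limma, adjusted p 0.000277, 2.79e-06 and 0.00543). In mid-colon it rose from 4.32, 15.9, 7.20 and 9.94 TPM to 92.3, 49.8 and 201 at day 6 and 117, 169 and 122 at day 9. Those differences were 3.38 ± 0.48 and 3.84 ± 0.34 (limma, adjusted p 0.00286 and 2.68e-05). By day 20 Duoxa2 in rectum read 64.6, 96.1 and 14.9 TPM, all above the uninjured samples, yet the difference of 2.14 ± 0.55 did not pass (limma, adjusted p = 0.0527).

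Some genes ranked the mice alike in both colon sections at the later days. At day 14 mouse 15 had the highest and mouse 14 the lowest value of Duox2, Duoxa2 and Nos2 in both mid-colon and rectum. At day 20 mouse 18 was highest and mouse 19 lowest for the same 3 genes in both sections. For Nox1 and Cybb the highest mouse differed between the sections, mouse 16 in mid-colon and 15 in rectum at day 14 and mouse 17 and 18 at day 20. Duox2 and Duoxa2 fell from day 9 to day 20 in mid-colon, by 2.37 and 2.91 on the log2 scale (limma, adjusted p 0.00829 and 0.0036). In rectum the fall of 1.88 and 2.19 passed narrowly (limma, adjusted p 0.0328 and 0.0375) and was lost without any of mice 11, 12, 13 or 17, with adjusted p up to 0.127 and 0.121. The response of rectum did not differ from that of mid-colon for either gene at day 6 or day 9 (at day 9, a difference of 0.66 ± 0.49 for Duox2 and 0.50 ± 0.45 for Duoxa2, adjusted p 0.53 and 0.627 by limma).

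The anus moved the other way. Duox2 there read 10.6, 4.94, 6.77 and 9.69 TPM uninjured and 14.4, 5.63 and 19.7 at day 3. It then read 2.65, 0.148 and 0.626 at day 6 and 0.551, 1.55 and 0.874 at day 9, wholly below the uninjured samples. By day 14 it was back at 3.61, 8.38 and 4.89 TPM and at day 20 at 4.87, 6.28 and 4.96. Duox2 fell by 2.20 ± 0.41 at day 6 and by 2.16 ± 0.30 at day 9 (limma, adjusted p 0.00953 and 0.00395). Duoxa2 fell by 2.09 ± 0.42 and by 1.33 ± 0.29 (limma, adjusted p 0.0123 and 0.0345), from between 7.62 and 18.8 TPM uninjured to between 0.75 and 4.17 at day 6 and between 3.52 and 3.8 at day 9. The Duoxa2 fall at day 6 was lost without mouse 9 or 10 and that at day 9 without mouse 4, 11, 12 or 13 (adjusted p up to 0.0572 and 0.127). The response of anus differed from that of rectum by -4.85 ± 0.49 for Duox2 and -5.59 ± 0.59 for Duoxa2 at day 6 (limma, adjusted p 2.65e-05 and 3.29e-05). Colonocyte markers in the same anal sections, as summed TPM, were also lower at days 6 and 9. They went from between 1066 and 3626 uninjured to between 47.1 and 97.2 at day 6 and between 39.2 and 52.6 at day 9. At day 14 their sum was still low, between 71.5 and 375 TPM, while Duoxa2 read between 17.2 and 24.7. At day 20 the colonocyte sum was between 246 and 1332. No colonocyte marker was listed at 0 in all samples of a group, and their part in the anal fall was not tested.

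Duox1 and Duoxa1, the second pair of dual oxidase and maturation factor, were high in the squamous sections and low in colon. Duox1 read 6.83, 7.32, 7.89 and 5.72 TPM in uninjured anus and 0.112, 0.0598, 0.0430 and 0.0874 in uninjured rectum, and in mid-colon no sample of any day exceeded 0.155 TPM. The groups did not overlap, and the anal mean was 91.8 times the rectal one (log2 difference 2.88 ± 0.15, limma adjusted p = 2.41e-07). Duoxa1 read 48.5, 35.9, 31.6 and 27.6 TPM in uninjured anus against 0.390, 0.371, 0.178 and 0.218 in rectum (4.81 ± 0.19, limma adjusted p = 8.7e-08). Noxo1 was lower in anus (-1.48 ± 0.30, limma adjusted p = 0.002), while Duox2, Duoxa2, Nox1 and Cybb did not pass between these sections. Of the 7 genes that could be tested between anus and rectum, 2 were called higher and 1 lower, where 25.9% of all genes were called higher and 34.4% lower. Duox1 and Duoxa1 were under 1 TPM in every uninjured rectal sample, so they entered only through the anus and could hardly be called lower. Between rectum and mid-colon at day 0 none of 5 was called by limma, against 1.79% of all genes, and only Cybb had an unadjusted p under 0.05 (0.00295). Within the anus Duox1 lay between 5.43 and 13.6 TPM over 19 samples and Duoxa1 between 27.6 and 66.3, and neither passed against day 0 on any day. The anal Duox1 samples of days 6, 9, 14 and 20 nonetheless all lay above the uninjured ones, with the smallest adjusted p at day 9 (0.70 ± 0.18, limma adjusted p = 0.0658).

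Because TPM is adjusted for length, the 2 dual oxidases could be set side by side within a sample. Duox1 made up 47.5 ± 11.0% (SD, n = 4) of the sum of Duox1 and Duox2 TPM in uninjured anus, 0.727 ± 0.481% in rectum and 0.203 ± 0.138% in mid-colon. The anus and rectum differed, as did rectum and mid-colon, at the smallest p that an exact two-sided permutation test of 4 against 4 samples allows (0.0286, adjusted over 4 comparisons 0.0286). With the sections of a mouse paired, the smallest exact sign-flip p over 4 mice is 0.125, which is what both comparisons gave. The rectal and mid-colonic shares rest on very low Duox1 values, at most 0.112 TPM in rectum and 0.0430 in mid-colon, where mouse 1 read 0. In anus the share was 90.4 ± 11.7% at day 6 and 92.3 ± 3.78% at day 9 (n = 3 each), then 63.3 ± 11.1% at day 14 and 65.2 ± 2.03% at day 20. In neo-epithelium the share was 59.1 ± 8.21% at day 9, 10.4 ± 3.57% at day 14 and 13.7 ± 3.47% at day 20. Over these days neo-epithelium had a higher Duox1 share than the rectum of the same mouse in 9 of 9 mice (27.7 ± 24.1% against 0.198 ± 0.109%) and a lower one than the anus (73.6 ± 15.3%) in 9 of 9 (exact two-sided sign-flip permutation p = 0.00391 each, adjusted 0.00781).

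**Figure D2:**
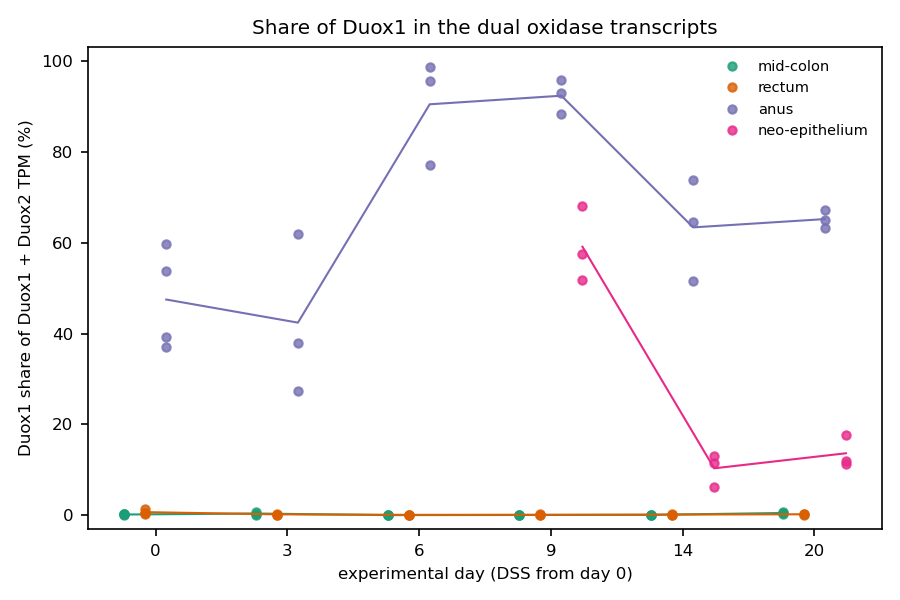
The vertical axis is the percentage of Duox1 in the summed Duox1 and Duox2 TPM, the horizontal axis the experimental day (days equally spaced), with 1 point per sample and lines through the means of each section. The anal samples lie between 27.4% and 98.6%, neo-epithelium drops from between 51.8% and 68.0% at day 9 to between 6.33% and 13.1% at day 14, and mid-colon and rectum stay under 1.44%.

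Neo-epithelium held both pairs. Its Duox1 read 5.47, 5.01 and 4.18 TPM at day 9, 2.77, 4.74 and 4.07 at day 14 and 2.92, 3.30 and 4.72 at day 20, under the anus of the same mouse in 9 of 9 mice (-1.17 ± 0.10, limma adjusted p = 3.71e-08). Its Duoxa1 lay between 38.8 and 71.6 TPM and did not differ from anus beyond its error (0.03 ± 0.11, limma adjusted p = 0.808). Duox2 read 4.05, 2.36 and 3.90 TPM at day 9, 40.9, 31.4 and 30.9 at day 14 and 21.4, 25.7 and 22.0 at day 20. Day 20 lay wholly above day 9 and the rise was 2.46 ± 0.21 on the log2 scale (limma, adjusted p = 0.00204). Duoxa2 rose over the same interval by 1.57 ± 0.28, Nox1 by 1.74 ± 0.38 and Noxo1 by 2.83 ± 0.22 (limma, adjusted p 0.0115, 0.0196 and 0.00163). Thus 4 of the 8 were called higher at day 20 than at day 9 and none lower, where 10.1% of all genes were called higher. The Nox1 call was lost without mouse 12, 13 or 17 (adjusted p up to 0.0834). In these samples the colonocyte marker sum went from between 38.7 and 424 TPM at day 9 to between 2710 and 6156 at day 20. The squamous sum went from between 31451 and 33553 to between 20330 and 24445. Crypt base and goblet markers (6 genes) went from between 4.59 and 61.8 TPM to between 2480 and 5367. At day 14, when Duox2 was highest, the colonocyte sum was between 608 and 4440 TPM and the squamous sum between 15157 and 22797. Their part in the rise of the 4 genes was not tested.

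Over days 9 to 20, with day in the model, neo-epithelium differed from rectum in 6 of 8 genes, 2 higher and 4 lower, where 20.7% of all genes were higher and 21.3% lower. Duox1 (2.16 ± 0.11) and Duoxa1 (4.03 ± 0.24) were higher, in 9 of 9 mice, with limma adjusted p of 3.44e-10 and 1.15e-09. Duox1 read at most 0.344 TPM in rectum on these days, so it entered this test only through neo-epithelium. Duox2 (-1.98 ± 0.53), Duoxa2 (-1.44 ± 0.49), Nox1 (-1.75 ± 0.33) and Noxo1 (-2.07 ± 0.38) were lower, with limma adjusted p of 0.00582, 0.0258, 0.000439 and 0.000287. The Duoxa2 call was lost without mouse 11, 12, 13 or 15 (adjusted p up to 0.0895). Duox2 and Duoxa2 were instead higher in neo-epithelium than in rectum in mice 14 and 19, and Nox1 in mouse 14. The neo-epithelium of mice 14 and 19 had the highest colonocyte sums of their days, 4440 and 6156 TPM. Their crypt base and goblet sums, 4228 and 5367 TPM, were also the highest. Rectal Duox2 of these mice was the lowest of their days, 35.2 and 12.2 TPM. The part of columnar cells in these exceptions was not tested. Duox2 averaged 3.44 TPM in neo-epithelium against 110.0 in rectum at day 9. The means were 34.4 against 81.9 at day 14 and 23.0 against 33.6 at day 20. Nos2 and Cybb did not pass (limma, adjusted p 0.294 for each). Against anus 6 of 8 were called higher and Duox1 lower (38.1% of all genes higher, 20.4% lower), among them Nos2, which was higher in 9 of 9 mice (3.07 ± 0.60, limma adjusted p = 0.000377). Both comparisons share the neo-epithelial samples.

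Nox1, the superoxide-making oxidase of colonic epithelium, fell during DSS and rose after it. In rectum it read 4.51, 5.10, 5.36 and 6.50 TPM uninjured, 0.245, 1.41 and 0.552 at day 3, and 0.238, 0.0991 and 0.0664 at day 6. From there it stood at 5.69, 8.81 and 7.49 TPM at day 9, 9.13, 18.0 and 14.3 at day 14 and 12.4, 15.4 and 7.18 at day 20. The samples of days 3 and 6 lay wholly under the uninjured ones and those of days 14 and 20 wholly above. Nox1 fell by 1.92 ± 0.22 at day 3 and by 2.48 ± 0.15 at day 6 (limma, adjusted p 0.0016 and 3.1e-05). It did not differ at day 9 (0.38 ± 0.18, limma adjusted p = 0.102), rose by 1.18 ± 0.22 at day 14 (adjusted p = 0.0171) and missed the threshold at day 20 (0.94 ± 0.24, adjusted p = 0.0516). The day 14 call was lost without mouse 1, 2, 3 or 16 (adjusted p up to 0.0692).

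In mid-colon Nox1 read 4.00, 5.77, 6.48 and 5.39 TPM uninjured, 0.819, 2.07 and 0.457 at day 3, 1.40, 0.196 and 0.302 at day 6 and 13.6, 16.3 and 34.7 at day 9. It fell by 1.66 ± 0.27 at day 3 and by 2.03 ± 0.26 at day 6, and rose by 1.72 ± 0.30 at day 9 and by 1.20 ± 0.24 at day 14 (limma, adjusted p 0.04, 0.00191, 0.00121 and 0.0311). The day 3 call was lost in 6 of 7 fits that left out 1 mouse (without mouse 1, 2, 3, 4, 5 or 7, adjusted p up to 0.132), with a pseudocount of 0.1 (0.0706) and with no filter on low values (0.171). The day 14 call was lost without mouse 1, 2, 3, 15 or 16 (adjusted p up to 0.155). The day 9 response was smaller in rectum than in mid-colon, by -1.34 ± 0.37 (limma, adjusted p = 0.0447), a call lost without mouse 1, 2, 3, 4 or 13 (adjusted p up to 0.156). In anus Nox1 varied already among the uninjured mice, at 0.980, 6.19, 1.61 and 6.64 TPM, and every sample of days 3 to 14 was under 0.341 TPM. It passed at day 6 (-1.92 ± 0.48, limma adjusted p = 0.0304) and missed at day 9 (adjusted p = 0.0624), entering both tests only through uninjured samples. The day 6 call was lost without mouse 8, 9 or 10 (adjusted p up to 0.101). Without mouse 2, 3 or 4 Nox1 was too low to be tested, so the call held only without mouse 1. Crypt base and goblet markers (6 genes) summed to between 8138 and 10657 TPM in uninjured rectum, 7893 and 9080 at day 3 and 17579 and 18725 at day 6. In mid-colon their sum was between 15503 and 19877 uninjured, between 11723 and 12874 at day 3 and between 22072 and 24524 at day 6. This sum joins Lgr5 and Ascl2 with Muc2, Zg16, Fcgbp and Clca1, so it cannot show crypt base cells apart from goblet cells. The part of these cells in the Nox1 change was not tested.

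Noxo1, the organizer of the NOX1 complex, had the highest TPM of the 8 when averaged over all samples of mid-colon or of rectum, but its value rests on how its transcripts are counted. In rectum the sum over its transcripts was 87.3, 81.0, 94.1 and 93.3 TPM uninjured, 193, 181 and 160 at day 6 and 166, 144 and 199 at day 9. These groups did not overlap and the difference was 0.99 ± 0.10 at day 6 and 0.92 ± 0.13 at day 9 (limma, adjusted p 0.000305 and 0.000396). In mid-colon it went from 70.5, 79.8, 99 and 82.9 TPM to 163, 148 and 150 at day 6 and 186, 219 and 213 at day 9 (0.89 ± 0.14 and 1.30 ± 0.15, limma adjusted p 0.0047 and 0.000128). The rectal call at day 14 (0.98 ± 0.20, limma adjusted p = 0.0214) was lost without mouse 1, 2, 3, 15 or 16 (adjusted p up to 0.0881). However, the 1 protein-coding transcript held 10.3% of the Noxo1 TPM over all samples. The annotated exons of the non-coding transcripts lie wholly within bases shared with Tbl3 of the opposite strand, as do 1347 of the 2238 exon bases of the protein-coding one, and whether the quantification used strand is not given in the sources used here. In the protein-coding transcript alone, rectum read 13.4 ± 2.06 TPM (SD, n = 4) uninjured, 16.0 ± 3.84 at day 6 and 10.7 ± 3.07 at day 9 (n = 3). Its log2 difference was 0.22 at day 6 and -0.33 at day 9 (limma, adjusted p 0.335 and 0.221), so the rectal and mid-colonic rise of Noxo1 was not seen there. Tbl3 itself stood at 12.5 ± 1.27, 9.10 ± 0.165 and 28.2 ± 3.60 TPM in rectum on days 0, 6 and 9, lower than uninjured when the Noxo1 sum was first high and higher later. In anus the Noxo1 sum fell from 33.0, 37.2, 14.9 and 51.0 TPM to 6.43, 1.67 and 2.78 at day 6 (-2.93 ± 0.45, limma adjusted p = 0.00404). At day 9 the sum read 2.28, 3.95 and 3.65 TPM (-2.93 ± 0.38, limma adjusted p = 0.00295). The anal protein-coding transcript fell as well at day 6, by 1.66 (limma, adjusted p = 0.0155), and missed at day 9 (-1.45, adjusted p = 0.052), beside the colonocyte marker sum given above.

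A like split touches Duoxa1. Its sum rose in rectum from between 0.178 and 0.390 TPM uninjured to 2.88, 1.09 and 2.48 at day 6 and 3.56, 3.08 and 3.51 at day 9 (1.24 ± 0.22 and 1.77 ± 0.14, limma adjusted p 0.00313 and 2.23e-05). Most of this lay in 1 transcript whose exons share 682 bases with Duoxa2, read on the opposite strand. That transcript stood at 2.71 ± 0.32 TPM in rectum and 2.27 ± 0.61 in mid-colon at day 9, and the other Duoxa1 transcripts together at 0.676 ± 0.496 and 0.143 ± 0.0678. In rectum the other transcripts went from 0.166 ± 0.17 TPM uninjured to 1.18 ± 1.08 at day 14, beside 2.19 ± 1.47 in the shared one. In uninjured anus the order was reversed, with 0.465 ± 0.264 TPM in the shared transcript and 35.4 ± 8.92 in the others. The others ranged from 0.0304 to 2.18 TPM in rectum at day 14. Squamous markers in rectum summed to between 22.0 and 223 TPM uninjured and between 26.7 and 1013 at day 14. The part of squamous cells in these rectal values was not tested. Without the shared transcript Duoxa1 was too low in colon to be tested, and the lower response of anus than of rectum (-1.001 ± 0.31 at day 6 and -1.11 ± 0.27 at day 9) became 0.18 and 0.17 (limma, adjusted p 0.664 and 0.773).

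**Figure D3:**
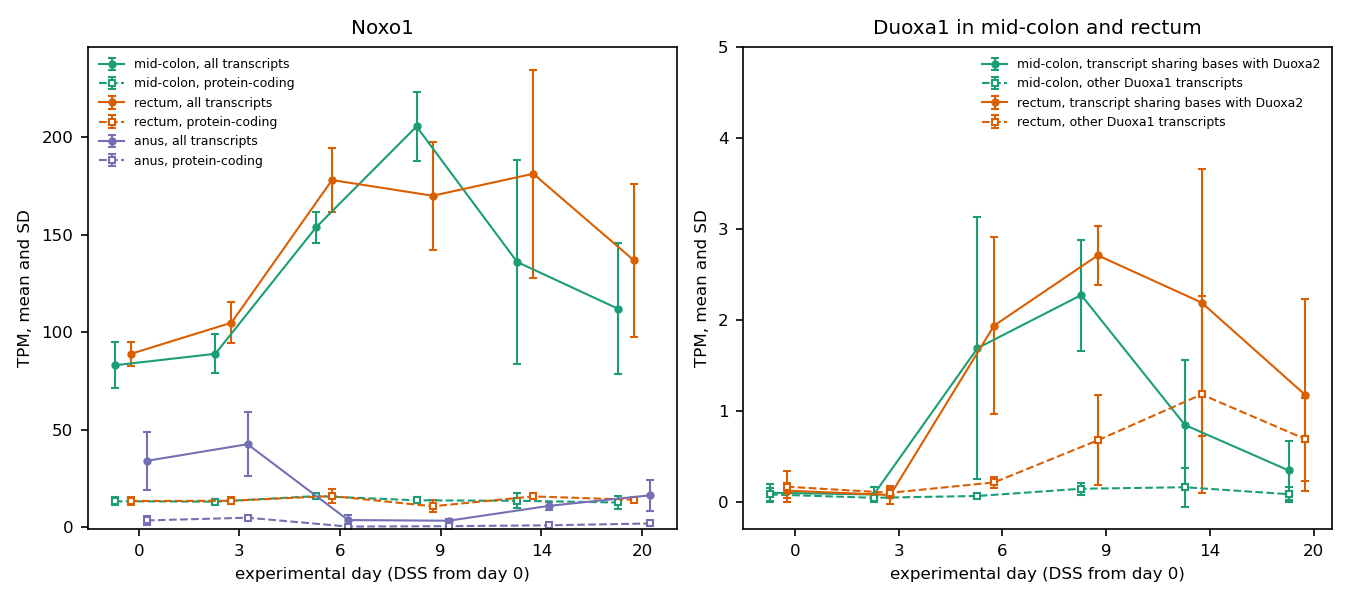
Left, Noxo1 TPM (mean and SD by section and day) summed over all transcripts (filled) and in the protein-coding transcript alone (open); right, Duoxa1 in mid-colon and rectum, split into the transcript that shares exon bases with Duoxa2 (filled) and the others (open). The open Noxo1 symbols of rectum stay between 10.7 and 16.0 TPM while the filled ones go from 88.9 to 181, and the filled Duoxa1 symbols of mid-colon reach 2.27 TPM where the open ones stay at or under 0.160; in rectum the open ones go from 0.166 TPM at day 0 to 1.18 at day 14.

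Nos2, the inducible synthase, spanned the widest range of the 8. In rectum it read 0.239, 0.338, 0.373 and 0.311 TPM uninjured, 1.38, 0.735 and 1.11 at day 3, 5.65, 4.58 and 17.5 at day 6 and 29.7, 379 and 171 at day 9. It read 6.70, 172 and 143 TPM at day 14 and 5.95, 86.2 and 0.958 at day 20, so every injured rectal sample was above every uninjured one. The difference was 2.75 ± 0.36 at day 6, 6.58 ± 0.70 at day 9 and 5.45 ± 0.98 at day 14 (limma, adjusted p 0.000968, 8.75e-05 and 0.0155), and the day 14 call was lost without mouse 1 or 16 (adjusted p up to 0.0624). In mid-colon Nos2 read 0.0444, 0.372, 0.15 and 0.203 TPM uninjured, 2.97, 1.55 and 27.1 at day 6, 21.4, 91.6 and 15.6 at day 9 and 1.16, 83.9 and 44.1 at day 14. It rose by 2.47 ± 0.66 at day 6 and by 4.78 ± 0.48 at day 9, and at day 14 the difference of 4.09 ± 1.03 did not pass (limma, adjusted p 0.0366, 5.13e-05 and 0.0592). The day 6 call was lost without mouse 1, 2 or 3 (adjusted p up to 0.0856). It fell from day 9 to day 20 in mid-colon, to 0.889, 2.46 and 0.132 TPM (by 4.06 ± 0.64, limma adjusted p = 0.00385), while in rectum the day 9 and day 20 samples overlapped and the difference did not pass (adjusted p = 0.105).

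In anus no Nos2 sample exceeded 6.46 TPM, and at days 9 and 14, the days on which it could be tested, it did not pass (limma, adjusted p 0.511 and 0.632). The anal response minus the rectal one was -2.60 ± 0.55 at day 6 and -5.82 ± 0.97 at day 9 (limma, adjusted p 0.00481 and 0.000784). In neo-epithelium Nos2 read 13.8, 21.4 and 126 TPM at day 9, 31.3, 17.7 and 55.5 at day 14 and 3.23, 30.6 and 1.24 at day 20. The day 9 values lay above the 0.245, 6.41 and 1.14 TPM of the anus of the same mice. Neutrophil markers (10 genes) summed in rectum to between 606 and 737 TPM uninjured and between 13002 and 14835 at day 9, and macrophage and monocyte markers (10 genes) to between 244 and 328 and between 1535 and 1969. The neutrophil sum cannot be read as neutrophils alone. In mid-colon at day 3 it was between 372 and 442 TPM, with S100a8, Retnlg and Stfa2l1 of the list at 0 in every sample. Colonocyte markers were lower at day 9 than uninjured, at between 4853 and 6969 TPM. The part of these cell types in the Nos2 rise was not tested.

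Cybb, the phagocyte oxidase core, was detected in every section. In rectum it read 1.20, 1.05, 1.03 and 1.35 TPM uninjured, 6.65, 2.59 and 4.84 at day 6, 11.5, 31.8 and 16.6 at day 9 and 1.64, 13.8 and 12.9 at day 14. It rose by 1.34 ± 0.24 at day 6 and by 3.17 ± 0.29 at day 9 (limma, adjusted p 0.00315 and 4.03e-05), and missed at day 14 (1.92 ± 0.56, adjusted p = 0.0536). In mid-colon the level was lower throughout, at 0.207, 0.699, 0.604 and 0.474 TPM uninjured and 1.90, 4.23 and 1.40 at day 9 (1.16 ± 0.27, limma adjusted p = 0.00562). At day 6 mid-colon read 1.29, 1.35 and 2.72 TPM (0.87 ± 0.22, limma adjusted p = 0.0279), a call lost without mouse 1, 3, 9 or 10 (adjusted p up to 0.12). At day 14 it read 2.02, 3.18 and 3.21 TPM (1.34 ± 0.20, limma adjusted p = 0.0118), a call lost without mouse 15 or 16 (adjusted p up to 0.0792). The day 9 response was larger in rectum by 2.01 ± 0.42 (limma, adjusted p = 0.00963), a call lost without mouse 13 (0.0689) and with a pseudocount of 0.1 (0.114). Neutrophil markers in mid-colon at day 9 summed to between 1474 and 3318 TPM and macrophage and monocyte markers to between 345 and 483, below the rectal sums given above. The part of these cells in the larger rectal response was not tested. In anus Cybb rose at day 14, to 5.07, 11.2 and 13.4 TPM from between 1.06 and 1.86 (2.09 ± 0.31, limma adjusted p = 0.013), a call lost without mouse 15 or 16 (adjusted p up to 0.0527). Macrophage and monocyte markers there summed to between 334 and 504 TPM uninjured and between 675 and 1029 at day 14, and neutrophil markers to between 529 and 1481 and between 873 and 5016; their part in the Cybb rise was not tested. In neo-epithelium Cybb read 6.14, 11.8 and 18.8 TPM at day 9 and 8.68, 32.5 and 38.2 at day 14. These days overlapped, and the difference between them was not tested. Neutrophil markers there summed to between 7365 and 19684 TPM at day 9 and between 1662 and 4074 at day 14. Macrophage and monocyte markers summed to between 1175 and 1607 TPM and between 824 and 1150. T cell markers (5 genes) summed to between 7.72 and 9.86 TPM at day 9 and between 12.6 and 27.0 at day 14. The part of these cell types in the neo-epithelial Cybb values was not tested.

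Counted over the 8 genes, rectum had 1 lower call of 5 tested at day 3 (Nox1), where 5.13% of all genes were lower. At day 6 it had 6 higher calls and 1 lower of 7 (11.5% and 37.2% of all genes), at day 9 6 higher of 7 (33.5%), at day 14 5 higher of 6 (6.31%), and at day 20 0 of 5 (7.68% in either direction), although limma gave all 5 an unadjusted p under 0.05. Mid-colon had 1 lower of 4 at day 3 (Nox1, 0.308%), 5 higher and 1 lower of 6 at day 6 (4.93% and 9.99%), 7 higher of 7 at day 9 (26.5%), 2 higher of 6 at day 14 (Nox1 and Cybb, 2.55%) and 0 of 5 at day 20 (1.56% in either direction), with 2 under 0.05 by limma before adjustment. Anus had 0 of 7 at day 3 (0.0440% in either direction), 4 lower of 7 at day 6 (Duox2, Duoxa2, Nox1 and Noxo1, 6.37%), 3 lower of 8 at day 9 (Duox2, Duoxa2 and Noxo1, 3.63%), 1 higher of 8 at day 14 (Cybb, 2.26%) and 0 of 7 at day 20 (1.46% in either direction). Before adjustment limma gave 2 anal genes a p under 0.05 at day 3 and 4 at day 20. In uninjured mid-colon Duoxa1, Nos2 and Cybb read at most 0.233, 0.372 and 0.699 TPM. In uninjured rectum Duoxa1 and Nos2 read at most 0.390 and 0.373 TPM. Where these genes were tested against day 0, they entered only through injured samples and could hardly be called lower. The counts of higher calls in mid-colon and rectum are partly set by this filter. These counts also include calls that depend on transcripts. The Noxo1 calls of mid-colon and rectum were lost in the protein-coding transcript (limma adjusted p between 0.221 and 0.826), as was that of anus at day 9 (0.052). The Duoxa1 calls of mid-colon and rectum could not be tested without the transcript that shares bases with Duoxa2.

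From day 9 to day 20, 5 of 7 were lower in mid-colon (14.5% of all genes lower), 3 of 7 in rectum (14.8%) and 2 of 7 higher in anus (1.21%). Among the mid-colonic calls, that of Noxo1 (-0.90 ± 0.23) was lost with TMM factors, another scaling between samples (adjusted p = 0.0535), with no filter on low values (0.0691), without mouse 12, 13, 17 or 19 (up to 0.104) and in the protein-coding transcript (-0.14, adjusted p = 0.721). The anal calls were Duox2 and Duoxa2, lost without mouse 11, 12 or 13 (adjusted p up to 0.105). The third rectal call, Cybb, was lost without mouse 12, 13 or 19 (adjusted p up to 0.0951), and all 3 rectal calls were lost with TMM factors. The response of rectum differed from that of mid-colon for 0 of 7 at day 6 (0% of all genes called by limma, and no member under 0.05 before adjustment). At day 9 it was higher for Cybb and lower for Nox1 of 7 (5.84% and 0.703%). The response of anus was lower than that of rectum for 5 of 8 at day 6 (6.16%) and 7 of 8 at day 9, where Duox1 was higher (15.6% and 4.36%). With the mouse as replicate block Duoxa1 at day 6 and Duox1 at day 9 were no longer called (adjusted p 0.0605 and 0.104). The Duox1 call was also lost with TMM factors (0.12) and with a pseudocount of 0.1 (0.558), and that of Noxo1 at day 9 in the protein-coding transcript (-1.12, adjusted p = 0.0853). In rectum at day 9 the median log2 difference was 3.16 over the 7 tested and 0.13 over all 13140 genes tested; in anus at day 6 it was -1.92 over 7 and 0.07 over 13730. In rectum at day 6 it was 1.34 over 7 and -0.27 over all 12615, and there TMM factors turned the calls over all genes from 1455 higher and 4690 lower to 2440 higher and 2102 lower without turning the direction of any of the 8 genes. Genes absent from a count were under 1 TPM in too many samples to be tested, and comparisons with day 0 in a section share its 4 uninjured samples.

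**Figure D4:**
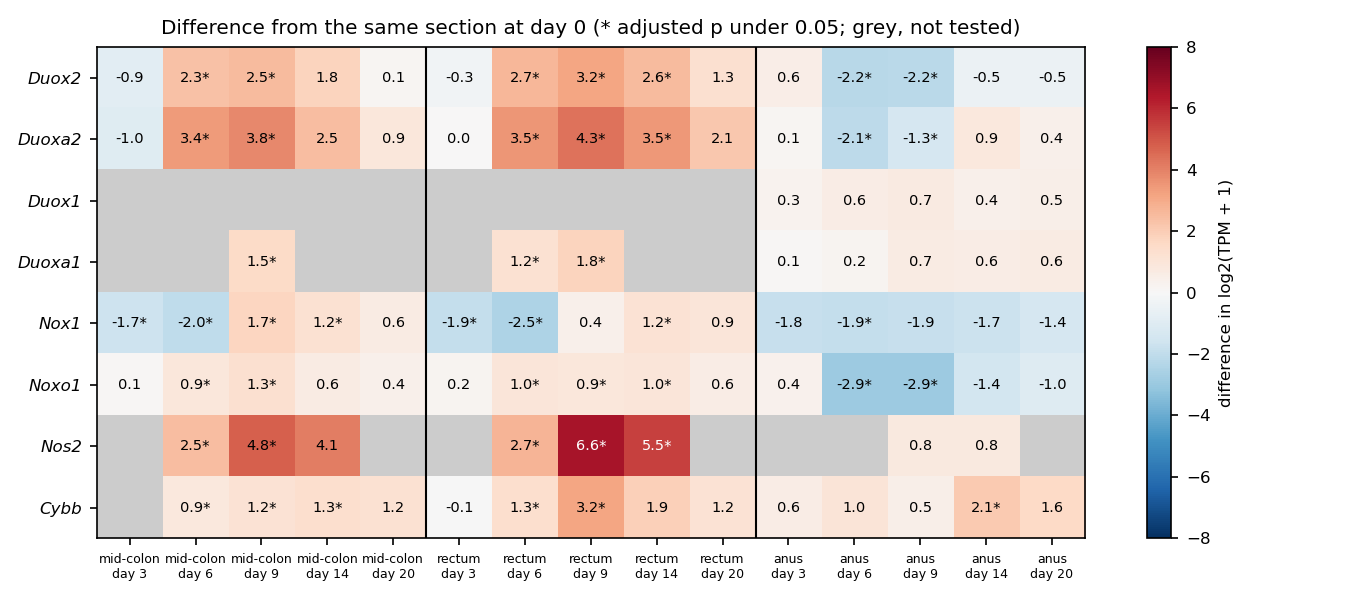
Rows are the 8 genes and columns the later days of mid-colon, rectum and anus; the colour and the number give the difference in log2(TPM + 1) from the same section at day 0, an asterisk an adjusted p under 0.05, and grey a gene that was too low to be tested. Duox2, Duoxa2 and Nos2 are higher in mid-colon and rectum at days 6 and 9, where Duox2 and Duoxa2 are lower in anus.

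In the order of levels over the 21 groups of section and day, Duox2 was highest in rectum at day 9 (110.0 ± 31.7 TPM), followed by rectum at day 14 and at day 6, and lowest in anus at day 9 (0.992 ± 0.511). Neighbours in that order overlapped in all but 1 of 20 steps, the gap between neo-epithelium at day 20 (23.0 ± 2.35) and anus at day 3 (13.2 ± 7.10). For Duox1 there were 2 such gaps, between anus at day 0 and neo-epithelium at day 9 and between neo-epithelium at day 20 and rectum at day 14, and for Nos2 and Cybb none. By Spearman rank over the 66 samples and 14908 genes, the genes closest to Duox2 were Trim40 (0.955), Clca4b (0.914, a chloride channel regulator with near-identical copies, hence uncertain), Adgrf1 (0.899), Duoxa2 (0.882) and Tnip3 (0.882). The closest to Nox1 were Cldn2, a pore-forming claudin (0.928), and Reg4 (0.900). The closest to Nos2 were Il18bp, the binding protein of interleukin 18 (0.899), and Gbp5, a guanylate-binding protein (0.884). The closest to Cybb were Srgn, a proteoglycan of blood cell granules (0.955), and Nckap1l (0.949). These coefficients describe samples that share mice and sections and carry no test.

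The wider pathway was followed with a list of 47 genes. In rectum at day 9, 26 of the 38 tested were higher and 4 lower, with a median difference of 1.36 beside the 0.13 of all genes; of all 13140 genes tested, 4404 were higher and 2624 lower (3829 and 3745 with TMM factors). Among the partners of CYBB in the phagocyte oxidase, Ncf1 was higher by 4.01 ± 0.26 and Rac2 by 3.89 ± 0.29 (limma, adjusted p 7.27e-06 and 1.33e-05). Noxa1, the activator of NOX1, was lower in rectum at day 6 (-0.64 ± 0.16), not different there at day 9 (0.10 ± 0.18), higher in mid-colon at day 9 (0.90 ± 0.19) and lower in anus at day 6 (-1.74 ± 0.35), with limma adjusted p of 0.0123, 0.661, 0.0034 and 0.0128. Lpo, lactoperoxidase, which consumes hydrogen peroxide, rose in rectum by 3.52 ± 0.29 at day 9 and was still 2.39 ± 0.33 higher at day 20 (limma, adjusted p 2.31e-05 and 0.0145).

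Of the 7 genes of arginine and cofactor supply, 6 were higher in rectum at day 9. Among them were the arginases Arg2 (4.54 ± 0.28) and Arg1 (4.27 ± 0.49), and Ass1, which rebuilds arginine from citrulline (2.65 ± 0.35). Of 19 antioxidant genes 10 were higher and 4 lower, where 33.5% of all genes were higher and 2624 of 13140 lower, with Gpx2, the gut glutathione peroxidase, higher by 2.75 ± 0.21 and the peroxiredoxin Prdx6 at -2.36 ± 0.27 on the log2 scale. The cytokines that could be tested (Tnf, Il1b, Il6 and Il22) were higher in 4 of 4, Il1b by 9.54 ± 0.51 and Tnf by 5.24 ± 0.36. All of these differences passed limma with Benjamini-Hochberg adjustment at 0.05. In uninjured rectum, however, Tnf averaged 0.164 TPM, Il1b 0.272 and Il6 0. These cytokines entered the test only through their day 9 values and could hardly be called lower, so that count carries little weight. In anus at day 6, 13 of 38 pathway genes were higher and 3 lower, against 1186 higher and 874 lower of all 13730 genes tested (968 and 1550 with TMM factors). Of the 36 tested at day 9, limma called Prdx6 and Noxa1, both lower, against 199 higher and 493 lower of 13591.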

How the data were processed

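The authors deposited 1 table of TPM values per Ensembl mouse transcript, a length-adjusted relative abundance signal, with 1 column per sample and no read counts. CASAVA, kallisto and mm10 are named per the submitters' processing notes, with no versions; the strand setting is not given in the sources used here. Libraries were stranded mRNA, read as single ends of 75 bp, per the labels' protocols. Of 126860 rows, 37344 held no values and 1318 repeated a transcript, which left 88198 transcripts. Each column then summed to 1000000 TPM, within rounding. TPM was summed per gene (30452 genes).

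Each comparison was a trended limma fit (version 3.58.1, R 4.3.3) of log2(TPM + 1) over all genes at 1 TPM or more in as many samples as the smallest group holds. The log2 difference understates changes of low genes. Calls are Benjamini-Hochberg adjusted p under 0.05, two-sided, over all genes tested. Only the groups compared entered a fit, with day as a covariate for neo-epithelium and an interaction for responses. The fit was tested on simulated data. Sections of 1 mouse carry its number in the labels, so numbers pair the samples; their deviations from group means correlated at a mean r of 0.0309 to 0.258 across genes. The depth per sample is unknown, so no counting interval or floor is given.

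Calculations outside limma used Python 3.11.15, numpy 2.4.6, pandas 2.3.3 and matplotlib 3.10.9. Alternatives were TMM factors, a pseudocount of 0.1, no filter, leaving out each mouse, the mouse as replicate block, and, added after seeing the data, protein-coding transcripts only and Duoxa1 without 1 transcript. Named are the 8 genes, the called pathway genes of largest change in rectum at day 9, and for Duox2, Nos2, Nox1 and Cybb the closest genes by Spearman rank. Other genes, among them the remaining pathway genes, were chosen after their values were seen. The genes and lists were chosen with earlier results of these data known. T cell and skeletal muscle markers were also summed: T cell markers held between 1.41 and 3.24 TPM in uninjured rectum and between 15.5 and 18.9 at day 9, and skeletal muscle markers between 832 and 9319 TPM in uninjured anus.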

Additional observations from a re-analysis of the deposited data

Results flagged for a closer look

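The response to injury differed between sections by an interaction test (limma, adjusted p under 0.05) in the following genes, each given as the difference in log2 change from day 0. At day 9 the rectal response minus the mid-colonic one was -1.34 for Nox1 and 2.01 for Cybb. At day 6 the anal response minus the rectal one was -4.85 for Duox2, -5.59 for Duoxa2, -1.001 for Duoxa1, -3.92 for Noxo1 and -2.60 for Nos2. At day 9 it was -5.32 for Duox2, -5.67 for Duoxa2, 0.62 for Duox1, -1.11 for Duoxa1, -2.25 for Nox1, -3.85 for Noxo1, -5.82 for Nos2 and -2.69 for Cybb. In the protein-coding transcript the Noxo1 value at day 9 was -1.12 and did not pass (adjusted p = 0.0853). The Duox1 value was called by a narrow margin (adjusted p = 0.0493) and was lost in each of 7 fits without 1 mouse (adjusted p between 0.0711 and 0.139). The Nox1 value at day 9 in anus was lost without mouse 13 (0.0549), and the Duoxa1 value at day 6 in 5 of 7 such fits (without mouse 1, 2, 3, 8 or 10, up to 0.165). In 24 checks of the 4 uninjured samples no sample stood far from the other 3.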

How the results depend on the processing

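Values are the number of the 8 genes called. With no filter on low values the counts were 0 in mid-colon at day 3, 1 in mid-colon at day 14 and 2 in rectum at day 3; from day 9 to day 20 they were 3 in mid-colon, 0 in rectum and 0 in anus, and for the rectal against the mid-colonic response at day 9 the count was 1. No filter also ended single calls of Nos2 and Cybb in mid-colon at day 6 (adjusted p = 0.108 and 0.0625) and of Nox1 at day 6 and Duoxa2 at day 9 in anus (0.0716 and 0.0881). Calls added by TMM included Nos2 in mid-colon and Cybb in rectum at day 14. With a pseudocount of 0.1 mid-colon at day 3 and that response had 0. With TMM factors the counts were 1 in mid-colon and 2 in rectum at day 20, and 0 in rectum from day 9 to day 20. TMM moved the median of all genes from between -0.27 and 0.26 over the comparisons to between -0.10 and 0.09 and changed no direction of the 8. It also turned the calls over all genes in mid-colon at day 6 from 590 higher and 1195 lower to 1086 and 859, and between the anal and rectal responses at day 6 from 2243 and 897 to 988 and 1796. Leaving out 1 mouse gave 0 to 1 (mid-colon day 3), 0 to 6 (mid-colon day 14), 0 to 1 (mid-colon day 20), 1 to 7 (rectum day 14), 0 to 7 (rectum day 20), 2 to 4 (anus day 6), 2 to 5 (anus day 9), 0 to 3 (anus day 14), 0 to 4 (rectum, day 20 against day 9), 0 to 2 (anus, day 20 against day 9) and 0 to 3 (rectal against mid-colonic response, day 9); the cause was not tested.

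With the mouse as replicate block, Duoxa1 (adjusted p = 0.0605, day 6) and Duox1 (0.104, day 9) were no longer called between the anal and rectal responses, and the day 0 Duox1 share differences of 46.7 and 0.524 percentage points had an exact paired p of 0.125, the smallest that 4 mice allow. The block changed no other call of the 8 genes. Without 1 mouse these differences ranged from 42.6 to 50.2 and from 0.220 to 0.649, with too few samples to reach the threshold. After the data were seen, 2 alternatives were added: protein-coding transcripts only turned Noxo1 in rectum at day 9 to -0.33, and Duoxa1 without the transcript shared with Duoxa2 turned the anal against rectal response to 0.18 at day 6 and 0.17 at day 9. The deposited table has no counts, so low values such as colonic Duox1 have unknown precision.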
